A study of Homo sapiens with 6 samples.

Results

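The genes described here were 34 genes of cholesterol and fatty acid synthesis and of the sterol-sensing system that controls them, chosen by gene symbol for their known roles. Earlier results of these data were known when the list was made, so shares set beside all genes are descriptions only. They were found among 19871 symbols and were represented by 239 of the 92866 transcripts measured. RNA sequencing was performed on HCT116, an established human colorectal cancer cell line of epithelial origin. There were 3 groups of 2 libraries each, a negative control (NC), cells transfected with a plasmid for the long noncoding RNA GAS5 (GAS5) and cells transfected with a YAP-specific siRNA (siYAP), and NC was the reference for both comparisons. YAP is a transcriptional co-activator of the Hippo pathway, and the question was which genes followed GAS5 overexpression or YAP knockdown. The labels enter all 3 groups under an siRNA field, whereas the treatment protocol names a plasmid for GAS5. The siRNA used, the content of the NC transfection and the time of harvest were not given in the labels, so a plasmid and an siRNA arm were compared with 1 shared control.

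The deposited tables held 1 mean per group in place of the single libraries. The spread between replicates could therefore not be measured, no p-value could be calculated from them, and every fold change below is a difference between 2 group means. The interval given with a fold change is an exact binomial interval at 95% and covers counting error only. A gene was called higher or lower where its log2 fold change reached 0.5 or -0.5, which is a linear fold of 1.41. Such a call is a size and not a statistical test.

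Cholesterol is built from acetyl-CoA through mevalonate, isoprenoids, squalene and lanosterol, while fatty acids are built from acetyl-CoA through malonyl-CoA and then elongated and desaturated. Both programmes are transcribed under SREBP factors, which are made as membrane precursors, escorted from the endoplasmic reticulum to the Golgi by SCAP when sterol is scarce, and held back by INSIG proteins when sterol is plentiful. Oxysterols act through LXR receptors, which drive sterol efflux pumps and also induce SREBF1 and fatty acid genes. SREBP-2 is best known for the cholesterol genes and SREBP-1 for the fatty acid genes.

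The promoters of 5 members are shown because the results turn on these genes and because SREBP factors are known to act close to the start site together with the CCAAT-binding factor NF-Y. The sequences are the 250 bases before the annotated start, 5′ to 3′ on the gene's strand, from RefSeq on GRCh38.p14. Capitals mark the sterol regulatory element core CACNCCAC, the CCAAT box and the E-box CACGTG, each searched on both strands. The HMGCS1 window lies at chr5:43313413-43313662 on the minus strand, and the other 4 lie on the plus strand at chr4:165327419-165327668 for MSMO1, chr7:155297628-155297877 for INSIG1, chr10:100346983-100347232 for SCD and chr22:41832855-41833104 for SREBF2.
HMGCS1: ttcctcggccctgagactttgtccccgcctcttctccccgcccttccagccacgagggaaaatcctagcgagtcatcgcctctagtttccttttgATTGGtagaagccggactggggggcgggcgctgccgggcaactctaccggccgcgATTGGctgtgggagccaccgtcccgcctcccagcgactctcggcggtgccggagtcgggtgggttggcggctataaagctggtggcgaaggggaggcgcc
MSMO1: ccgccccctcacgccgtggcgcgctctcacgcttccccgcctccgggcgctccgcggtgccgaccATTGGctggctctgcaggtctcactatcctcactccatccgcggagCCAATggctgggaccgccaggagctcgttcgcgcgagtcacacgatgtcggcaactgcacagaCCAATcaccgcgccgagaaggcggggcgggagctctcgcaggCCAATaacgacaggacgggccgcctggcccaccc
INSIG1: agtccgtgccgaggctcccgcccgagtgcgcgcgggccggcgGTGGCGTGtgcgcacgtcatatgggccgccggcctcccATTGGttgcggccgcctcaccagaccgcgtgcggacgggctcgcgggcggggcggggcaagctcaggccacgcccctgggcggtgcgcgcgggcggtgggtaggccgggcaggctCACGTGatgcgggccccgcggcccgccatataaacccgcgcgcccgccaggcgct
SCD: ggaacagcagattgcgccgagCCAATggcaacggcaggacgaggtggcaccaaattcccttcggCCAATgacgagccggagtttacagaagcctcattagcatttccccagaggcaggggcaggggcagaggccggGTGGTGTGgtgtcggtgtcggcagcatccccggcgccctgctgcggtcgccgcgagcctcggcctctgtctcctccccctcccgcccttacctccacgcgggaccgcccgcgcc
SREBF2: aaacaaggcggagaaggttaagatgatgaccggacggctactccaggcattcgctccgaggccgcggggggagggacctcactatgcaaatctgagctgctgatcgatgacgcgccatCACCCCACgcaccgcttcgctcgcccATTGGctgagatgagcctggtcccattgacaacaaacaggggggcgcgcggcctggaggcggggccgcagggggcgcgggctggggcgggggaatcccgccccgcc

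In these letters HMGCS1 carried 2 inverted CCAAT boxes, 155 and 100 bases before the start, and no match to the sterol regulatory element core. A second annotated start of HMGCS1, with its window at chr5:43313182-43313431, is not shown and held no CCAAT box, core or E-box. MSMO1 carried 4 CCAAT boxes, at 185, 139, 76 and 34 bases, and also no match to the core. INSIG1 held a core match at 208 bases, a CCAAT box at 170 and an E-box at 55. SCD held a core match at 114 bases below CCAAT boxes at 229 and 186, and SREBF2 held a core match at 132 bases next to a CCAAT box at 106. RefSeq promoters of 300 bases, 250 before and 50 after the start, were matched for 29 of the 34 members in 38 windows. ACAT2, FDFT1, SQLE, FASN and ABCG1 had no matched window. A CCAAT box was found in 65.8% of the 38 windows and in 34.6% of all 35116 promoters of the same length, or 34.5% of the 13604 promoters of genes with enough counts to be compared. The core was found in 21.1% of the member windows, belonging to IDI1, SC5D, INSIG1, SREBF2, ACACA, SCD and ABCA1, and in 5.87% of all promoters. For the E-box the shares were 15.8% and 7.26%, and for the GC box GGGCGG, the textbook Sp1 motif, 89.5% and 45.0%. Among the promoters of the genes compared, the core was in 5.70%, the E-box in 9.34% and the GC box in 67.9%. A match is a description of the letters, and binding was not measured.

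The 34 genes took up 0.701% of all counts in NC, 0.773% with GAS5 and 0.913% with siYAP. Much of this lay in FASN and SCD, which together held 0.398%, 0.455% and 0.572%. Per length, SCD, the desaturase that makes monounsaturated fatty acids, was the most abundant member in NC at 292 FPKM, followed by FASN, the multi-domain fatty acid synthase, at 287 FPKM. ACLY, which makes cytosolic acetyl-CoA from citrate, followed at 182 FPKM and FDFT1, the squalene synthase, at 92.3 FPKM. Transcripts of the genes that encode the SREBP factors were also abundant, with SREBF2 at 59.7 FPKM and SREBF1 at 53.5 FPKM. The lowest were the efflux pumps ABCG1 at 1.79 FPKM and ABCA1 at 0.86 FPKM. Neighbours in this order, such as SCD and FASN, could not be separated, since the spread between libraries was not available.

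**Figure D1:**
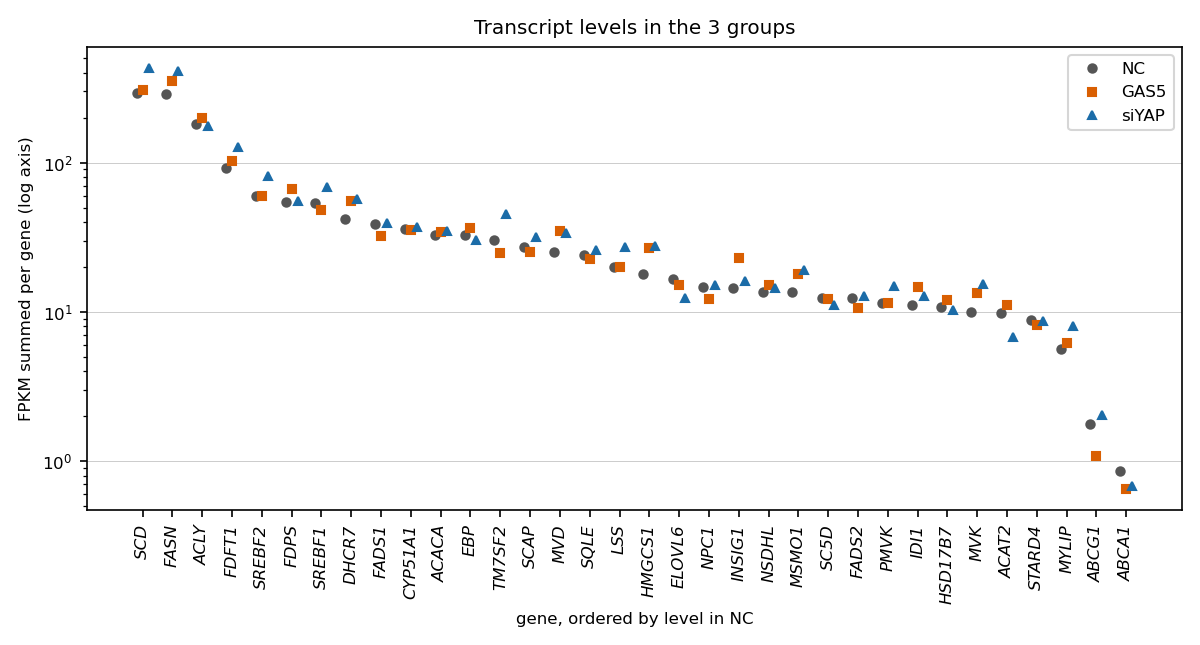
FPKM summed over the transcripts of each of the 34 genes (log axis) in NC, GAS5 and siYAP, with 1 point per group mean and genes ordered by their level in NC. The levels run from 0.86 FPKM for ABCA1 to 292 FPKM for SCD in NC, and the siYAP point lies above the NC point for SCD, FASN, FDFT1, SREBF2 and TM7SF2.

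With GAS5, 4 of the 34 genes were called higher, HMGCS1, INSIG1, MSMO1 and MVD. This compares with 3.66% of all 11907 genes that had a mean of at least 50 counts over the groups. ABCG1 alone among the members was called lower, against 3.40% of all genes. MVD and MSMO1 were at the threshold, and 3 members, not 5, were past it when scaled by total counts. With siYAP, 7 members were called higher, HMGCS1, MSMO1, TM7SF2, MVK, SCD, FASN and MYLIP, against 4.82% of all genes, and 0 were called lower, against 6.58%. No member reached a 2-fold difference in either comparison, a size reached by 1.07% of all genes with GAS5 and 0.840% with siYAP. The log2 fold change was above 0 for 21 members with GAS5 and 27 with siYAP, while 49.1% and 49.3% of all genes lay above 0. The median over the members was 0.06 with GAS5 and 0.19 with siYAP, beside -0.01 for all genes in each comparison. Both comparisons used the same NC values, so a low or high NC mean enters both.

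**Figure D2:**
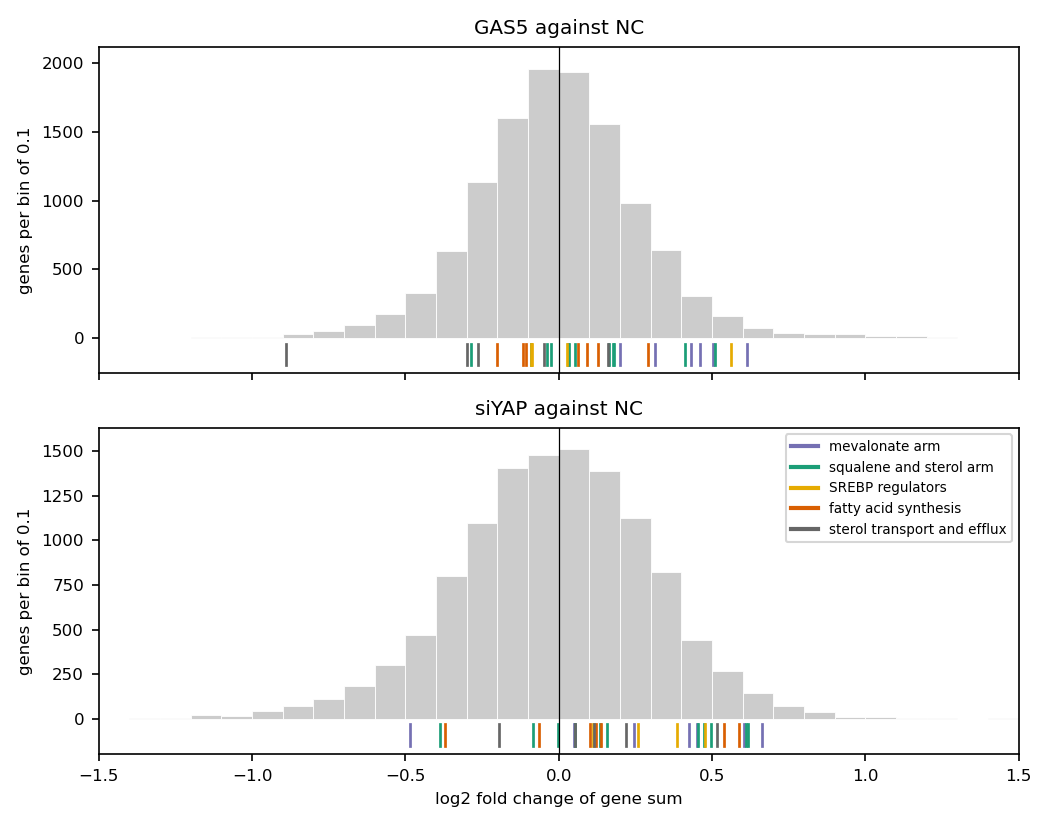
Number of genes per bin of 0.1 in log2 fold change for all 11907 genes (grey bars; 47 genes with GAS5 and 16 with siYAP lie outside the axis), with the members as ticks under the bars, coloured by role. The members extend to 0.61 with GAS5 and 0.66 with siYAP on the higher side. On the lower side they extend to -0.89 with GAS5 (ABCG1) and -0.48 with siYAP (ACAT2).

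The 7 genes of the mevalonate arm, which lead from acetyl-CoA to farnesyl diphosphate, had a median log2 fold change of 0.43 with GAS5 and 0.43 with siYAP. With GAS5 the counting interval lay above 0 for 6 of the 7 and spanned 0 for PMVK, and with siYAP it lay above 0 for 5 and below 0 for ACAT2. Such intervals were common, since of all 11907 genes 3869 lay above 0 with GAS5 and 4286 with siYAP. A further 4000 genes with GAS5 and 4412 with siYAP had an interval below 0. When the median of genes of like GC content was subtracted, the median of the arm was 0.41 with GAS5 and 0.22 with siYAP, where MVD stood at 0.19 and PMVK at 0.22. HMGCS1, the cytosolic HMG-CoA synthase, had mean counts of 1714 in NC, 2426 with GAS5 and 2560 with siYAP. Both treated groups lay above NC, by a log2 fold change of 0.61 (0.55 to 0.68) with GAS5 and 0.66 (0.60 to 0.73) with siYAP. Of the 11907 genes, 255 lay higher than HMGCS1 with GAS5 and 197 with siYAP.

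MVK, mevalonate kinase, had 516.5 counts in NC against 657 with GAS5 and 741 with siYAP, or log2 fold changes of 0.46 (0.34 to 0.58) and 0.60 (0.49 to 0.72). MVD, the decarboxylase that forms isopentenyl diphosphate, had 1238, 1622 and 1598 counts. It was at 0.50 (0.43 to 0.58) with GAS5, at the edge of the threshold, and at 0.45 (0.38 to 0.53) with siYAP. IDI1, the isomerase of isopentenyl diphosphate, stood at 0.43 with GAS5 and 0.25 with siYAP.

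The other members of the arm were less alike between the groups. FDPS, the farnesyl diphosphate synthase, was at 0.32 with GAS5 and 0.05 with siYAP. PMVK, phosphomevalonate kinase, was at 0.03 (-0.12 to 0.17) with GAS5 and 0.43 with siYAP. ACAT2, the cytosolic acetoacetyl-CoA thiolase that starts the arm, was the exception. Its counts were 862.5 in NC, 916 with GAS5 and 581 with siYAP, so that it lay above NC with GAS5 at 0.20 and below NC with siYAP at -0.48 (-0.59 to -0.38). In the GENCODE annotation of GRCh38, 52.3% of the exonic bases of ACAT2 on chromosome 6 overlap genes of the other strand (TCP1, SOD2 and SOD2-OT1). For FDPS, HMGCS1 and IDI1 this share was 18.6%, 15.0% and 14.8%. The libraries were strand-specific, but the setting used for counting was not given in the sources used here.

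The 11 enzymes that follow, from squalene to cholesterol, had medians of 0.05 with GAS5 and 0.16 with siYAP. MSMO1, the sterol C4-methyl oxidase, stood out in both comparisons, with 710.5 counts in NC, 935 with GAS5 and 1029 with siYAP. Its log2 fold changes were 0.51 (0.41 to 0.61) and 0.62 (0.52 to 0.72). DHCR7, the reductase of the last step of the pathway through 7-dehydrocholesterol, had 2636, 3242 and 3510 counts. It was at 0.41 (0.36 to 0.46) with GAS5 and, just under the threshold, at 0.50 (0.45 to 0.55) with siYAP.

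TM7SF2, a sterol C14-reductase, was placed on opposite sides of NC in the 2 groups. Its mean counts were 1380 in NC, 1045 with GAS5 and 1986 with siYAP, or log2 fold changes of -0.29 (-0.37 to -0.20) and 0.61 (0.54 to 0.68). FDFT1, which commits farnesyl diphosphate to sterols, was at 0.18 with GAS5 and 0.47 (0.43 to 0.51) with siYAP, where its mean rested on 4406 counts in NC and 5765 in siYAP. LSS, the lanosterol synthase, was at 0.05 and 0.45. SQLE, the squalene epoxidase and a rate-limiting step of the arm, differed little from NC in the group means, at -0.09 and 0.16.

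CYP51A1, the lanosterol demethylase, was at -0.04 and 0.05, and 79.4% of its exonic bases are shared with annotated readthrough transcripts of the same strand. NSDHL was at 0.16 and 0.13, EBP, the sterol isomerase, at 0.18 and -0.08, and SC5D, the C5-desaturase, at -0.03 and -0.00. HSD17B7, the 3-ketosteroid reductase of the pathway, was at 0.03 with GAS5 and -0.39 (-0.52 to -0.26) with siYAP. Of its NC counts, 78.5% were assigned to transcripts assembled by the authors and not to Ensembl transcripts, and its annotated transcript ENST00000254521 lay above NC in both groups, with 128.8 counts in NC against 170.8 with GAS5 and 166.7 with siYAP. HSD17B7 also has a transcribed pseudogene copy with which reads can be shared, so its value is uncertain. Over the 18 enzymes of both arms, 14 were above 0 in each comparison, with medians of 0.18 with GAS5 and 0.34 with siYAP.

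**Figure D3:**
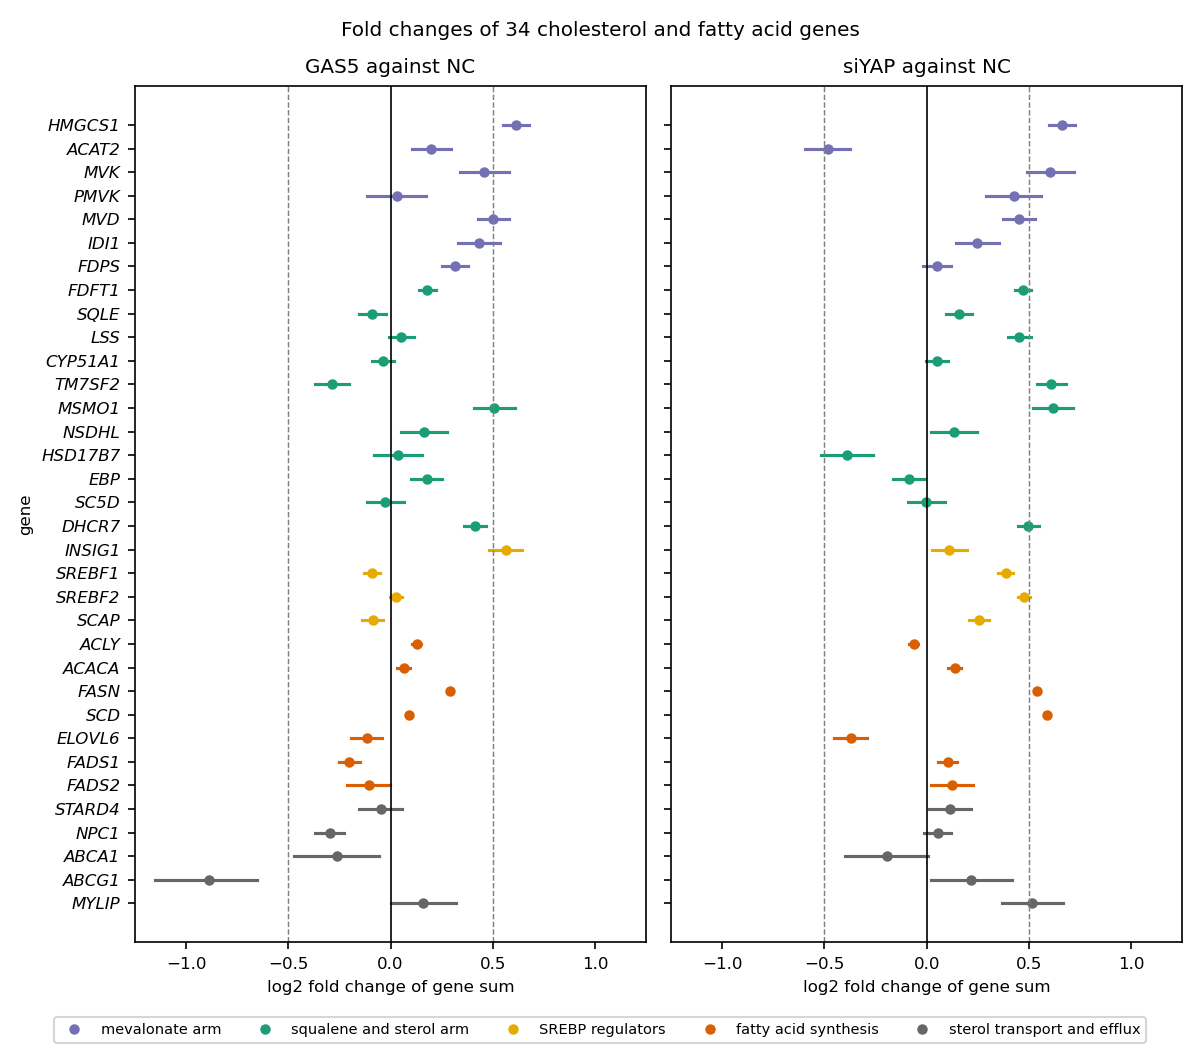
Log2 fold change of the summed counts of each of the 34 genes against NC, by role (colour), with GAS5 on the left and siYAP on the right. Bars are exact 95% intervals for counting error only, dashed lines mark -0.5 and 0.5, and HMGCS1 and MSMO1 lie to the right of 0.5 in both panels while ABCG1 lies at -0.89 with GAS5.

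The 4 regulators differed in their order between the treated groups. INSIG1, which anchors SCAP in the endoplasmic reticulum and is itself an SREBP target, had 1071 counts in NC, 1463 with GAS5 and 1091 with siYAP. It was higher with GAS5, at a log2 fold change of 0.56 (0.48 to 0.64), and close to NC with siYAP, at 0.11 (0.02 to 0.20). The genes of the factors showed the reverse order. SREBF2, which encodes SREBP-2, had 8673 counts in NC against 8168 with GAS5 and 11392 with siYAP, or 0.03 (-0.00 to 0.06) and 0.48 (0.45 to 0.51). SREBF1, which encodes SREBP-1, had 5799, 5039 and 7151 counts, or -0.09 (-0.13 to -0.05) and 0.39 (0.35 to 0.42). SCAP was at -0.09 with GAS5 and 0.26 with siYAP. All 4 were above 0 with siYAP and 2 of 4 with GAS5, where 49.3% and 49.1% of all genes were above 0. The difference between the treated groups was not tested, since no spread between libraries was available.

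Among the 7 fatty acid genes, FASN and SCD were higher with siYAP. SCD had 42803 counts in NC, 42142 with GAS5 and 60716 with siYAP. Its log2 fold change was 0.09 (0.08 to 0.10) with GAS5 and 0.59 (0.58 to 0.60) with siYAP. FASN had 65359, 73950 and 89610 counts, or 0.29 (0.28 to 0.30) and 0.54 (0.53 to 0.55). The narrow intervals of these 2 genes reflect their depth and do not include the spread between cultures.

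The steps before and after them did not share this pattern. ACLY was at 0.13 with GAS5 and -0.06 with siYAP, and ACACA, the acetyl-CoA carboxylase that makes malonyl-CoA, was at 0.06 and 0.14. ELOVL6, which elongates the product of FASN, had 1546 counts in NC against 1317 with GAS5 and 1126 with siYAP, and lay below NC in both groups, at -0.12 (-0.19 to -0.04) and -0.37 (-0.45 to -0.29). The polyunsaturated fatty acid desaturases FADS1 and FADS2 were at -0.20 and -0.11 with GAS5 and at 0.10 and 0.12 with siYAP. The median of the 7 genes was 0.06 with GAS5 and 0.12 with siYAP.

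The 5 genes of sterol transport and efflux were mostly below NC with GAS5. ABCG1, an LXR-driven sterol efflux pump, had the lowest value of all members, with 201 counts in NC, 99.5 with GAS5 and 221 with siYAP. Its log2 fold change was -0.89 (-1.15 to -0.65) with GAS5 and 0.22 (0.02 to 0.42) with siYAP, and 46 of the 11907 genes lay lower with GAS5. ABCA1, also an LXR-driven pump, was at -0.26 (-0.47 to -0.06) and -0.19 (-0.40 to 0.01), on 220.5, 169.5 and 181.5 counts. NPC1, which releases cholesterol from lysosomes, was at -0.30 (-0.37 to -0.23) with GAS5 and 0.05 with siYAP, on 1922, 1445 and 1883 counts.

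STARD4, a cytosolic sterol carrier, was at -0.05 and 0.11. MYLIP, an LXR-induced ubiquitin ligase that lowers lipoprotein uptake, had 329.5 counts in NC against 340.5 with GAS5 and 445 with siYAP, or 0.16 (0.00 to 0.32) and 0.52 (0.37 to 0.67). The values of ABCG1, ABCA1 and MYLIP lay on both sides of 0 in each comparison, though the interval of ABCA1 with siYAP spanned 0. A shared cause for these genes was not tested. With GAS5, 4 of the 5 transport genes lay below 0 and the median was -0.26, and with siYAP 4 of 5 lay above 0 and the median was 0.11.

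The gene sums were also split by transcript, as estimated by the authors. For INSIG1, the annotated transcript ENST00000340368 held 72.9% of the counts in NC, 82.6% with GAS5 and 81.1% with siYAP, and had 781 counts in NC and 1209 with GAS5, a log2 fold change of 0.74. The assembled transcript TCONS_00129871 of INSIG1 went from 183.5 counts in NC to 30.3 in GAS5 and 81.6 in siYAP. For ABCG1, most of the difference lay in the assembled transcript TCONS_00092391, with 96.3 counts in NC, 16.9 with GAS5 and 103 with siYAP. The other ABCG1 transcripts were split differently in GAS5, where ENST00000398449 had 24.1 counts against 11.9 in NC, so the split rests on few counts.

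SREBF1 kept its main transcript, ENST00000261646, at 64.6%, 70.7% and 68.7% of the sum. Its second transcript ENST00000395757 had 1204 counts in NC against 671 with GAS5 and 1222 with siYAP, a log2 fold change of -0.73 with GAS5 and 0.11 with siYAP. SCAP was counted mainly on assembled transcripts, and the share of TCONS_00102643 was 29.4% in NC, 51.6% with GAS5 and 35.2% with siYAP, while the annotated ENST00000265565 had 645 counts in NC, 234 with GAS5 and 442 with siYAP. In contrast, both major transcripts of HMGCS1 and both of SCD lay above NC with siYAP, at 0.73 and 0.53 for HMGCS1 and at 0.55 and 0.71 for SCD. The transcripts of MSMO1 were less alike. ENST00000261507 was at 0.70 with GAS5 and 0.78 with siYAP, ENST00000393766 at -0.32 and 0.21, and ENST00000504317 at 0.12 and -0.08. The accuracy of these splits could not be judged from group means.

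**Figure D4:**
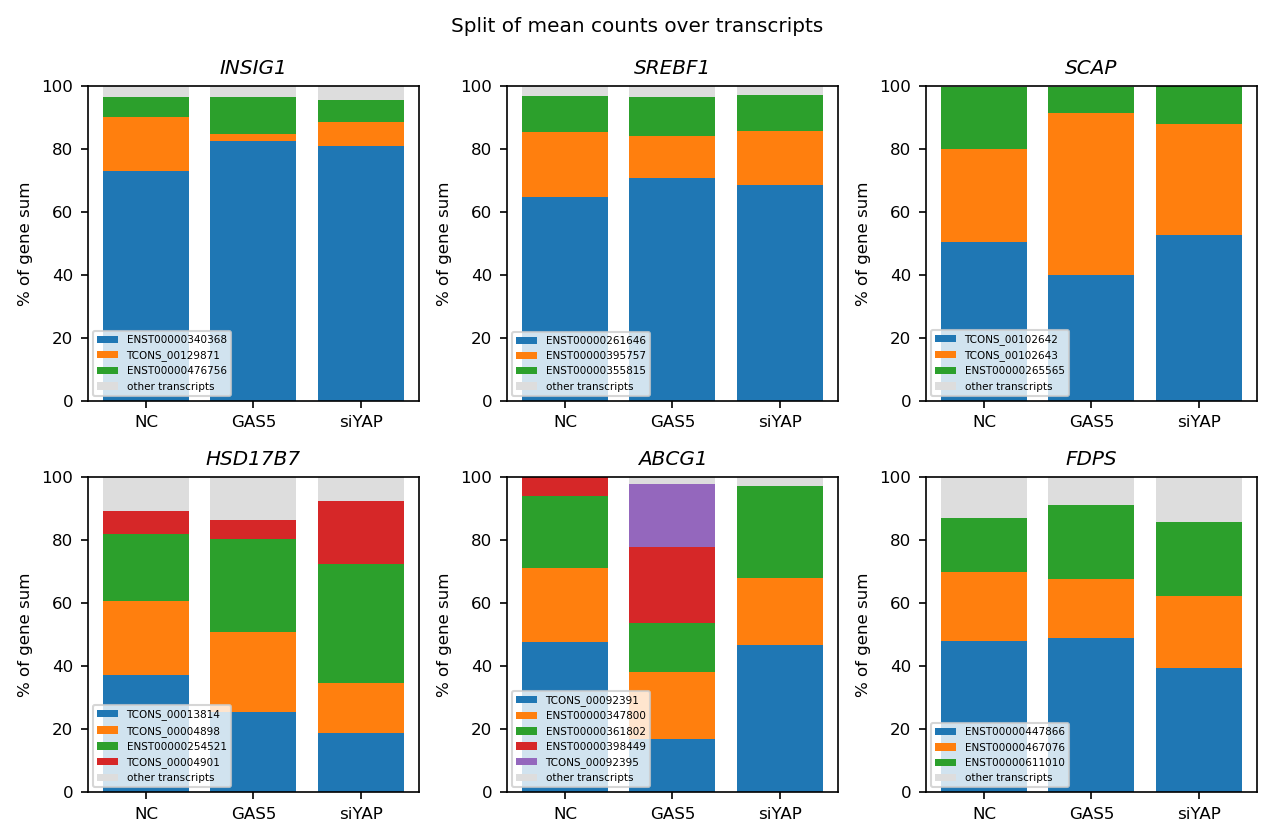
Share of the summed mean counts of INSIG1, SREBF1, SCAP, HSD17B7, ABCG1 and FDPS held by each transcript with at least 10% in 1 group, as stacked bars to 100% for NC, GAS5 and siYAP. The split of SCAP and ABCG1 differs most visibly in GAS5, where TCONS_00102643 holds 51.6% of SCAP, whereas the main transcript of INSIG1 holds 72.9% to 82.6% in all 3 groups.

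Base composition moved with the siYAP comparison across all genes. The median log2 fold change with siYAP ran from -0.21 in the lowest of 10 equal groups of genes by GC content to 0.27 in the highest, and with GAS5 from -0.07 to 0.08. HMGCS1 and MSMO1 are GC-poor, at 40.1% and 38.1%, and lay above the upper quartile of genes of like composition. After the median of their GC group was subtracted they stood at 0.85 and 0.83 with siYAP. SCD, at 47.1% GC, stood at 0.64. FASN is GC-rich at 65.3% and stood at 0.27, and TM7SF2 and MVK, at 62.0% and 61.0% GC, stood at 0.40 and 0.39. SREBF2 stood at 0.32, INSIG1 at 0.23, SREBF1 at 0.12 and SCAP at 0.05. On this scale 4 members, HMGCS1, MSMO1, SCD and FDFT1, were at or above 0.5 with siYAP, against 2.68% of the 11787 genes with a GC content, and 0 were at or below -0.5, against 4.32%. The median of all 34 members was 0.21. The part of base composition in these results was not tested.

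**Figure D5:**
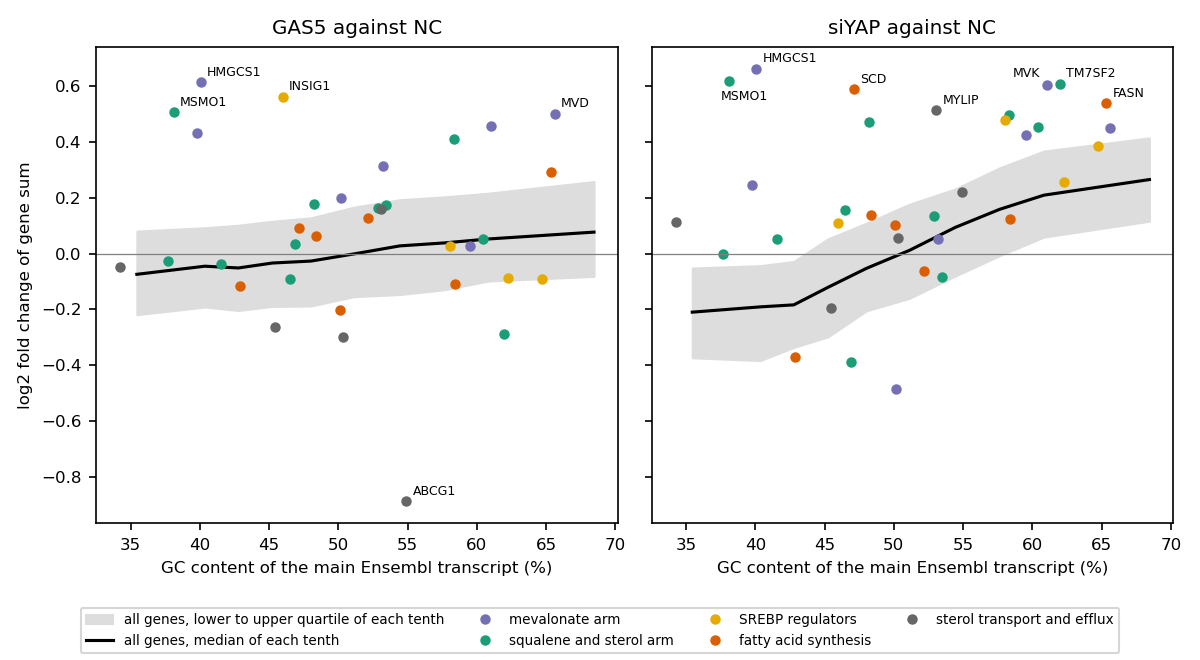
Log2 fold change against the GC content of the main Ensembl transcript, in percent, for the 34 genes (points, by role) over the median (line) and the lower to upper quartile (grey) of all genes in 10 equal groups by GC content. With siYAP the line runs from -0.21 to 0.27, so that HMGCS1 and MSMO1 lie further above it than FASN, MVK and TM7SF2.

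Transcript length moved with both comparisons. The median over all genes ran from 0.11 in the shortest of 10 equal groups by transcript length to -0.14 in the longest with GAS5, and from 0.11 to -0.10 with siYAP. With the length median subtracted, the members had medians of 0.10 with GAS5 and 0.24 with siYAP. The part of length was not tested either.

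The remaining lipid genes were taken as lists of pathway members. Of 20 other genes of fatty acid and acetyl-CoA metabolism, 0 passed 0.5 in either direction with GAS5, against 7.06% of all genes, and 2 passed it with siYAP, against 11.4%. ACSS2, which makes acetyl-CoA from acetate, had 1771 counts in NC against 1535 with GAS5 and 2550 with siYAP, or -0.09 and 0.61. GPAM, which begins glycerolipid synthesis, had 1039, 1028 and 592 counts, or 0.10 and -0.72. The medians of this list were -0.05 and -0.01. Of 19 other measured genes of sterol synthesis, sensing and transport, 0 passed 0.5 in either comparison, beside the same shares of all genes, and their medians were 0.00 with GAS5 and 0.10 with siYAP. Lists by the KEGG pathway labels of the deposited tables include members. The 20 terpenoid backbone genes had medians of 0.15 with GAS5 and 0.03 with siYAP, and the 17 of steroid biosynthesis 0.03 and 0.13. For 9 genes of fatty acid biosynthesis they were -0.05 and 0.12, and for 17 of unsaturated fatty acids -0.04 and -0.04.

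The group means rested on 27206123 counts for NC, 25521577 for GAS5 and 26298036 for siYAP. YAP1, the gene targeted by the siRNA, had 3480 counts in NC, 2679 with GAS5 and 1444 with siYAP, a log2 fold change of -0.26 and -1.18. GAS5 RNA itself was not analysed here, so the overexpression was not checked. The epithelial markers KRT8, KRT18, KRT19, EPCAM and CDH1 were present in all groups, whereas VIL1 had at most 6 counts. KRT8, KRT18 and KRT19 were at log2 fold changes of 0.45, 0.45 and 0.49 with siYAP and CDH1 at -0.43 with GAS5. The median of the 5 markers was 0.14 with GAS5 and 0.45 with siYAP. Of 6 markers of other cells, PTPRC was at 0 in all 3 groups, and COL3A1 and PECAM1 had at most 6 counts. COL1A1 had 378.5, 556 and 540 counts, CD68 had 202.5, 279.5 and 203, and VWF had 31, 27.5 and 47. Their part in the results was not tested. Fewer cells of a kind and less RNA per cell cannot be told apart in such bulk samples.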

How the data were processed

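RNA of HCT116 cells was sequenced on an Illumina platform from strand-specific (dUTP) libraries, 2 for each of NC, GAS5 and siYAP. Per the labels, TopHat2 (version 2.1.1) is named in the submitters' processing notes; the counting tool, genome build and annotation were not given in the sources used here. The authors deposited 2 tables, each with estimated counts per transcript and FPKM, averaged over the libraries of a group, so that 1 value per group was available. FPKM of 0 had been written as 0.001 in the deposited tables and was set to 0. Columns of fold changes, p-values and FDR of the authors were not used.

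Counts and FPKM were summed by gene symbol over both tables joined by transcript, and 339 transcripts without a symbol (0.22% of NC counts) were left out. Genes with a mean of at least 50 counts over the 3 groups were compared (11907 genes). Log2 fold changes were calculated in Python (3.11.15) with a prior count of 2 after TMM scaling (edgeR 4.0.16) of each pair of group means, and exact Clopper-Pearson intervals at 95% were taken on the doubled means. The treated to NC factors were 1.08 for GAS5 and 1.06 for siYAP. Scaling and intervals were tested on data simulated with counting error alone, so that test does not cover the spread between cultures. The planned count test could not be run on group means. Alternatives were another scaling, filter, prior count, set of transcripts, and FPKM; centring by GC content, transcript length and expression level was added after the data were seen. The named genes were all 34 members by role, with the values of those past 0.5, and in the other lists those past 0.5. The members and lists were chosen with earlier results of these data known. Promoters were taken from RefSeq and gene overlaps from GENCODE, both on GRCh38. Some items are not reported here.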

Additional observations from a re-analysis of the deposited data

How the results depend on the processing

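No paired analysis was possible because each group was deposited as 1 mean, which also kept the replicates from being left out in turn and DESeq2 from being run as a test. The members' median log2 fold change stayed above 0 in all 12 alternatives, from 0.04 to 0.10 with GAS5 and from 0.15 to 0.28 with siYAP, the highest (0.28) from the most abundant transcript of each gene. The count of members past 0.5 with GAS5, 5 in the report, was 3 with total counts, with TMM on transcripts, with FPKM ratios and with length centring. It was highest, at 7, with the most abundant transcript. With siYAP, 7 in the report, it was 4 with GC centring, 6 with FPKM ratios and with expression centring, 8 with Ensembl transcripts only and with length centring, and 10 with TMM on transcripts. The cause was not tested. In the tallies by gene that follow, the filter settings either repeat the main value of a gene or remove it. The smaller prior count hardly changes it, so these settings could not disagree. HMGCS1 was past 0.5 in 12 of 12 alternatives in both comparisons, INSIG1 in 12 of 12 with GAS5 and SCD in 12 of 12 with siYAP. ABCG1 was past -0.5 in 11 of the 11 that gave it a value (a minimum mean of 200 removes it), from -2.27 to -0.62. MVD was past 0.5 in 4 of 12 with GAS5, MSMO1 in 8 with GAS5 and 11 with siYAP, FASN in 10 and MYLIP in 8 with siYAP. Apart from the filter and prior settings, only the most abundant transcript, at 0.51, put MVD past 0.5 with GAS5. HSD17B7 with siYAP ranged from -0.50 to 0.44 and SCAP from -0.47 to 0.32, so their sign depended on the transcripts used. The interval width is set by counts alone, and the spread between cultures remains unknown.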
